A study of Mus musculus with 4 samples.

Results

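Phosphorylated STAT3 (pSTAT3-Y705) marked 55 distal genes in normal LSK cells and in leukemic LSK cells from imatinib-treated mice that had no entry in the peak list of untreated leukemic LSK cells. A gene belonged to this group when it was the nearest gene of at least 1 peak in WT and in CML-TKI, of none in CML, when each of its peaks lay more than 1000 bp from the transcription start site (TSS), and when its nearest RefSeq accession was protein-coding (NM_). Genes with a peak on chromosome Y, genes named Zfp and 4 named loci were left out. The 55 genes were among 958 names in the table and 526 distal genes that met the other conditions (10.5%). They were chosen by that library pattern and by distance to the TSS, so both are given as a description and were not tested. Of the 526 distal genes, 1 was named in WT only and 86 in all 3 libraries. Nearly every distal gene named in WT was therefore named in CML-TKI too, the longest of the lists. The members' pattern is thus close to that of distal WT genes without a CML entry, and it does not show a return to the normal state. Of all 958 names, 127 (13.3%) had an entry in WT and another in CML-TKI but none in CML, and 72 of those were not kept: 48 had an entry within 1000 bp of the TSS, 14 had a noncoding accession, 7 were named Zfp and 3 were left out by name. The members nearest to the distance threshold were Fbxw7 at 1177 bp, Arid3a at 1205 bp and Lipt2 at 1272 bp. Genes just outside it included Hmga1 at 987 bp and Npas4 at 784 bp. Leaving out entries narrower than 200 bp gave 33 genes with the pattern, of which 15 were among the 55.

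STAT3 is a latent transcription factor that is phosphorylated on a tyrosine by kinases downstream of cytokine receptors and of oncogenic kinases, then dimerizes, enters the nucleus and binds DNA. STAT dimers recognize a short palindrome, and much of their binding lies in introns and between genes, where enhancers are found. The gene nearest to such a site is not necessarily the gene it regulates. BCR-ABL, the fusion kinase of chronic myeloid leukemia (CML), is inhibited by the tyrosine kinase inhibitor (TKI) imatinib.

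LSK (Lin-Sca1+cKit+) cells, a stem and progenitor fraction of bone marrow, were sorted from C57BL/6 mice in all groups. WT were untreated wild-type mice, CML were untreated mice of a double transgenic model (BCR-ABL and SCL-tTA) in which BCR-ABL is expressed in stem cells once tetracycline is withdrawn, and CML-TKI were mice of that model given imatinib on alternate days (200 mg/kg for 4 weeks by the sample's label, 400 mg/kg for 30 days by the treatment protocol). With 1 library in each group there were no replicates, groups could not be tested against each other, and the library labelled Input was not analysed here. WT had 1031 entries (746 distinct peaks), CML had 1464 (715) and CML-TKI had 3529 (1757). The table held no read counts, scores or enrichment, so depth is unknown, and a gene missing from the CML list is a gene without a listed peak rather than a gene shown to be unbound. The study describes far longer site lists than the table used here, so a gene without a CML entry may have a CML site in them. A site bound in fewer cells and a site bound more weakly in each cell cannot be told apart in such libraries, and how many mice were pooled in each is not given in the sources used here. Peak lists do not measure expression, so the labelled cell type could not be checked by it. Of 8 LSK and stem cell marker genes only Kit had a peak, in each library, and none of the markers chosen for T cells (Cd3e, Cd4, Cd8a) or myeloid cells (Lyz2, Mpo, Elane, Itgam, Csf1r) did.

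In each of the 55 genes a WT peak and a CML-TKI peak overlapped by at least 1 bp (100%, exact 95% interval 93.5 to 100). By peaks this was 60 of 60 WT peaks, near the 230 of 236 (97.5%, 94.5 to 99.1) in distal genes named in all 3 libraries. Most were single narrow sites: 42 members had 1 distinct peak in WT and 1 in CML-TKI. Peaks were intergenic throughout in 32 members, in an intron in 19, in an exon in 2 and in a 3' UTR in 2. Over both libraries, 41 of 132 member peaks (31.1%, 23.3 to 39.7) lay in an intron. By genes, an intron peak was found in 34.5% of members, 27.9% of distal genes named in all 3 libraries and 28.3% in CML-TKI only. The share was 28.8% in CML only and 33.3% in CML and CML-TKI, and the intervals overlap. By WT peaks it was 33.3% in members and 14.8% in genes named in all 3 libraries, which have more peaks each. The smallest distance of a peak to the TSS ranged over the members from 1177 bp to 884449 bp with a median of 21217 bp, and was under 10 kb in 22 members and over 100 kb in 14. Over CML-TKI peaks the median distance was 18437 bp in members and 20252 bp in genes named in CML-TKI only. It was 30921 bp in genes named in CML and CML-TKI and 51922 bp in those named in all 3 libraries. Peaks lay downstream of the TSS in 30 members and upstream in 26, Hnf4g having both. Members were spread over 18 chromosomes with at most 6 on any of them. Intervals here and below cover counting error over genes or peaks only, and peaks that overlap one another are not independent.

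**Figure D1:**
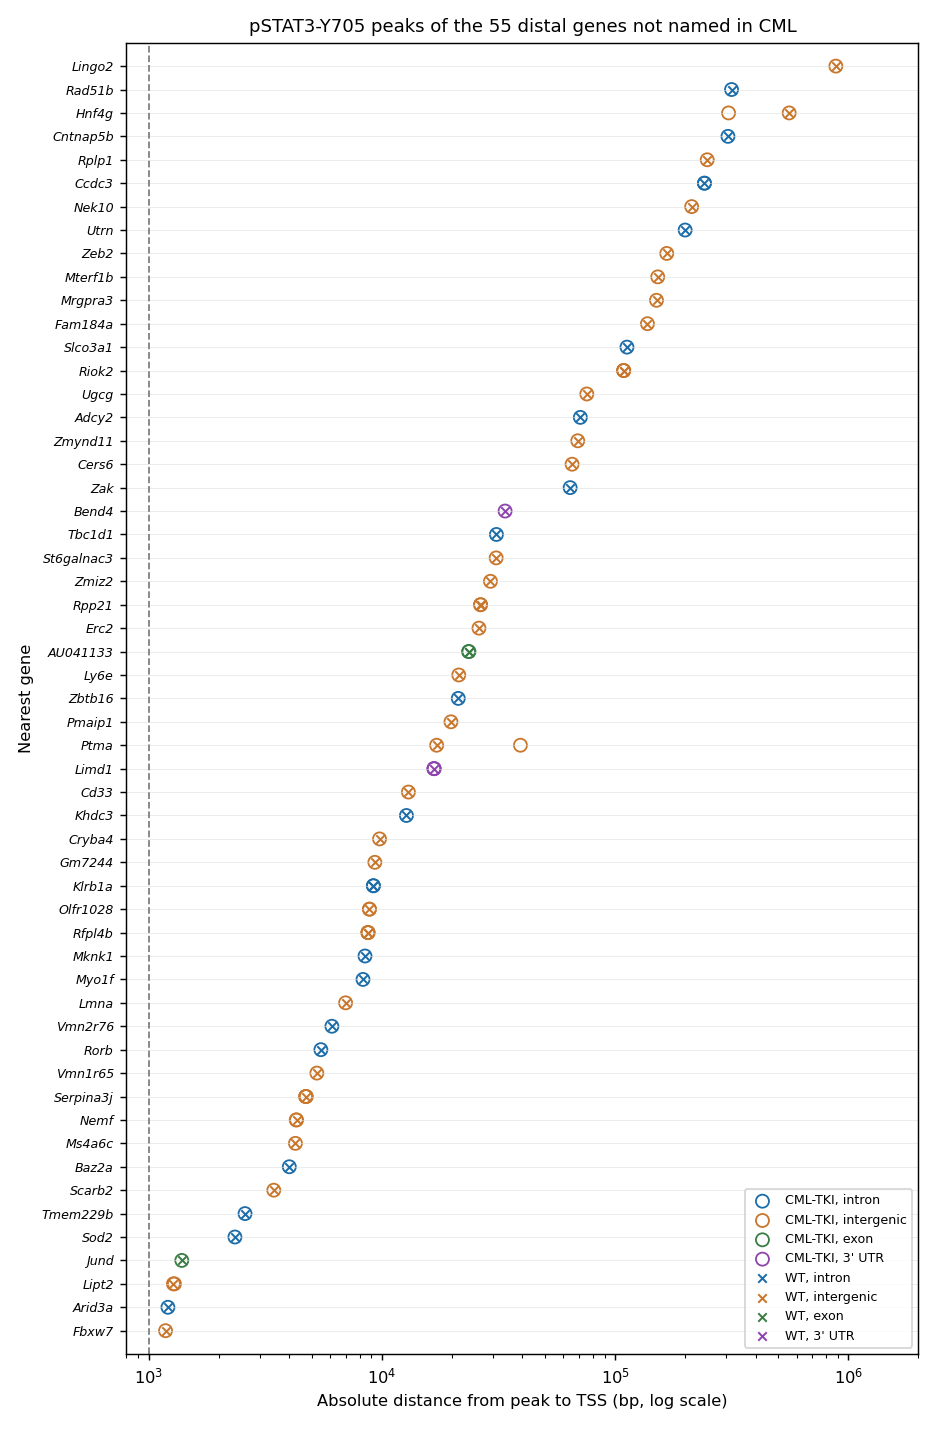
Absolute distance from each pSTAT3-Y705 peak to the TSS of its nearest gene (bp, log scale) for the 55 members, with WT peaks as crosses, CML-TKI peaks as open circles, colors for the region class and a dashed line at the 1000 bp threshold. Crosses fall inside circles in every row, and the circles without a cross belong to Hnf4g and Ptma.

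Members were sorted into role groups by hand. No other genes were sorted, so the counts per role here and below have no background share beside them and only order the description. Genes for transcription and chromatin factors made up 10 of the 55. In the fixed lists, 1 of 51 hematopoietic transcription factors and 0 of 49 chromatin regulators were members. Jund encodes a subunit of the AP-1 transcription factor, and its peak was the second widest of the members at 442 bp, in exon 1 of 1 at chr8:73222799-73223241 in WT and in CML-TKI, 1382 bp downstream of the TSS. Zbtb16 encodes PLZF, a zinc finger repressor active in blood cell development, and had a 162 bp peak in intron 2 of 6 at chr9:48622752-48622914, 21217 bp downstream, in both libraries. Arid3a encodes an AT-rich interaction domain protein known from B cells, and its peak of 155 bp lay in intron 1 of 8 at chr10:79391214-79391369. Both libraries listed the same ends for each of these genes.

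Zeb2, which encodes a zinc finger repressor that binds E-boxes and is needed in hematopoiesis, had its peak 166407 bp upstream of the TSS with a width of 210 bp in WT and in CML-TKI. Hnf4g encodes a nuclear receptor, and its shared peak lay 557653 bp downstream at chr3:4065593-4065774. CML-TKI listed a further Hnf4g peak at chr3:3201540-3201708, 306406 bp upstream, that no WT peak overlapped. For Rorb, a retinoid-related orphan receptor, the peak was in intron 1 of 9, 5460 bp from the TSS. Baz2a, whose product silences ribosomal RNA genes, had a peak in a CpG island of its intron 2 of 29, 3997 bp from the TSS. Zmynd11, a reader of methylated histone H3, Zmiz2, a PIAS-like coactivator, and Bend4, a BEN domain protein, had peaks at 69072, 29159 and 33695 bp, the last in the 3' UTR of Bend4 itself.

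Kinases, other signaling enzymes and a ubiquitin ligase subunit made up 8 members. Riok2, an atypical kinase of ribosome maturation, had the widest peak at 723 bp, at chr17:17402268-17402991, 108667 bp upstream of the TSS, with the same ends in WT and CML-TKI. A peak of 310 bp nested in it was also listed by both libraries, and one of 507 bp only by CML-TKI. These positions are annotated to the repeat MurSatRep1. Fbxw7, the substrate receptor of a ubiquitin ligase that degrades Myc, cyclin E and Notch, had the member peak nearest to a TSS, at chr3:84618230-84618414, 1177 bp upstream and in a CpG island. Adcy2, an adenylyl cyclase, had a 160 bp peak in intron 2 of 24 at chr13:69067476-69067636, 70863 bp downstream.

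Limd1, a LIM domain adaptor of signaling complexes, was the nearest gene of peaks in the last exon of another gene, Lars2, the mitochondrial leucyl-tRNA synthetase. CML-TKI listed them at chr9:123370992-123371233 and chr9:123371007-123371240, and a peak 16694 bp upstream of the Limd1 TSS was listed without full ends by both libraries. Zak (Map3k20), a stress-activated MAP kinase kinase kinase, was likewise named for a peak inside another gene, in intron 16 of 29 of Rapgef4. Mknk1, which phosphorylates the cap-binding protein eIF4E, had a peak in its intron 2 of 14, 8443 bp from the TSS. Tbc1d1, a Rab GTPase-activating protein, had one in intron 2 of 19, and Nek10, a NIMA-related kinase, one 212834 bp downstream.

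Surface, immune and transport genes made up 11 members, sensory receptors included. Cd33 encodes a sialic acid-binding lectin of myeloid cells and had a 140 bp peak 12965 bp upstream of its TSS in both libraries. Ly6e, a GPI-anchored surface protein, had a 166 bp peak 21324 bp upstream, and Ms4a6c, a membrane-spanning protein of the MS4A family, had a 150 bp peak 4247 bp upstream. Klrb1a, a lectin-like receptor of natural killer cells, had peaks in its intron 5 of 5, with chr6:128563674-128563901 and chr6:128563676-128563901 in WT. CML-TKI listed the first of these in full and a peak at the distance of the second with rounded ends. Scarb2, a lysosomal membrane receptor, Myo1f, a leukocyte myosin, and Slco3a1, an organic anion transporter, had peaks at 3429, 8278 and 112313 bp, those of Myo1f and Slco3a1 inside the gene.

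The other 4 of these members were sensory receptor genes: Mrgpra3, which marks itch neurons, the vomeronasal receptors Vmn1r65 and Vmn2r76, and the olfactory receptor Olfr1028. Each had its peak in an LTR element, at distances of 150395, 5247, 6088 and 8817 bp. The olfactory receptor was the member whose widest peak differed most between libraries, at 273 bp in WT and 294 bp in CML-TKI. These genes belong to large families with near-identical copies, as do Klrb1a, Ms4a6c, Serpina3j and AU041133, and how reads that match several copies were placed is not given in the sources used here.

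Lipid, glycan and redox genes counted 5. Ugcg, which makes glucosylceramide, had one of the 4 members' peaks wider than 300 bp, of 313 bp at chr4:59126729-59127042 in both libraries, 75537 bp upstream of the TSS. Cers6, a ceramide synthase, had a 148 bp peak 65304 bp upstream. Sod2, the mitochondrial superoxide dismutase, had a 193 bp peak in intron 2 of 4 at chr17:13202945-13203138, 2336 bp downstream of the TSS, in WT and in CML-TKI. Lipt2, a lipoyltransferase of mitochondria, had its peak 1272 bp upstream in a B1 SINE, and CML-TKI also listed chr7:107306362-107306643. St6galnac3, a sialyltransferase, had a peak 30846 bp upstream whose ends were not listed in full.

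Genes of cell death, DNA repair and cell structure followed the same form of a single peak shared by WT and CML-TKI. Pmaip1, which encodes the BH3-only protein Noxa, had a 165 bp peak 19739 bp downstream of its TSS. Rad51b, a gene of homologous recombination, had a 144 bp peak in intron 7 of 10 at chr12:80713890-80714034, 315624 bp from the TSS. Lmna, the gene of lamin A/C, had a 193 bp peak 6971 bp upstream, and Utrn, the dystrophin relative utrophin, a 140 bp peak in intron 40 of 73.

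Among genes of translation and RNA processing, Nemf, a ribosome quality control factor, had peaks in a 7SL RNA repeat upstream of the gene. WT listed chr12:70462299-70462581, and CML-TKI chr12:70462302-70462582 and chr12:70462334-70462581, so no pair of ends was equal. Rplp1, an acidic protein of the ribosomal stalk, had a 148 bp peak 248118 bp downstream at chr9:61514125-61514273. Rpp21, an RNase P subunit gene, had 2 peaks in each library in a CpG island, the widest being chr17:36368225-36368522 in WT and chr17:36368225-36368507 in CML-TKI. Ptma, the prothymosin gene, had a shared 158 bp peak 17135 bp upstream and a second, 167 bp, 39207 bp upstream and in a CpG island, that only CML-TKI listed. Mterf1b, of the mitochondrial transcription termination factor family, had a peak at 152252 bp.

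The farthest peak of all was that of Lingo2, a leucine-rich repeat protein of neurons, 884449 bp upstream of the TSS at chr4:37783157-37783296 and 139 bp wide, the narrowest of the WT widths. Cntnap5b, a neuronal contactin-associated protein, had a peak in intron 6 of 23, 304603 bp from the TSS on chromosome 1, whose ends were not listed in full. Erc2, a scaffold of the presynaptic active zone, had a peak 26027 bp upstream.

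The remaining members had no common role. AU041133 had 2 peaks in exon 4 of 4, chr10:81614151-81614517 in both libraries, with chr10:81614158-81614350 in WT and chr10:81614131-81614367 in CML-TKI. Ccdc3, a secreted coiled-coil protein, was named for a peak in intron 2 of 9 of another gene, Camk1d, annotated to an rRNA repeat. It was listed at chr2:5300211-5300397 in WT and at chr2:5300216-5300403 and chr2:5300219-5300397 in CML-TKI. Serpina3j, a serine protease inhibitor gene, had its widest peak at chr12:105547927-105548207 in WT and chr12:105547931-105548207 in CML-TKI. Rfpl4b, a ret finger protein-like gene, had 2 peaks in WT and 3 in CML-TKI, and chr10:38550180-38550361 was listed by both. Khdc3, an oocyte gene, was named for a peak in intron 6 of 6 of Rab27a. Cryba4, a lens crystallin, Fam184a, Tmem229b and Gm7244 had peaks at 9747, 137507, 2581 and 9305 bp.

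Of 641 genes in 13 lists of blood cell regulators, JAK-STAT and STAT3 target genes, metabolism and signaling pathways, 64 had a peak anywhere in the table and 3 were members: Zbtb16 among hematopoietic transcription factors, Adcy2 among cAMP signaling genes and Cntnap5b among neuronal adhesion genes. No member was in the lists of 39 STAT3 target genes, 60 JAK-STAT and cytokine receptor genes or 34 glycolysis genes, of which only 5, 6 and 3 had a peak in any library, too few for these zeros to set the members apart. Over the same lists, 7 of 86 distal genes named in all 3 libraries, 16 of 180 named in CML-TKI only, 10 of 153 named in CML only and 6 of 51 named in CML and CML-TKI were list genes.

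The ends of the shared peaks were mostly the same to the base. A pair of identical ends was listed in 43 of the 48 members with full ends in both libraries (89.6%, 77.3 to 96.5). The exceptions were Ccdc3, Nemf, Olfr1028, Rpp21 and Serpina3j. By peaks, 45 of 53 WT peaks of the members (84.9%, 72.4 to 93.3) had a CML-TKI peak with the same ends. The 45 include a Klrb1a peak whose rounded CML-TKI ends were taken from WT, so its match was set in advance. Rounded ends were filled in the same way for the comparison that follows. Of the WT peaks of distal genes named in all 3 libraries, 86 of 214 (40.2%, 33.6 to 47.1) had one in CML-TKI and 44 of 214 (20.6%, 15.4 to 26.6) in CML. The methods name a step that merges peaks across samples, and whether it set equal ends cannot be told from the table, so equal ends were not read as equal binding.

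Peak widths spanned 139 to 723 bp in WT, with a median of 183.5 bp over the widest peak of each of 48 members and the same median in CML-TKI. The widest peak had equal width in 41, was wider in WT in 4 and wider in CML-TKI in 3, with differences from -21 to 15 bp. Widths of 200 bp or less were listed for 33 members, and only Riok2, Jund, AU041133 and Ugcg exceeded 300 bp. The median over all WT peaks was 185 bp in members and 317 bp in distal genes named in all 3 libraries, but over CML-TKI peaks it was 191.5 and 234.5 bp, so the size of the difference varied with the library. The CML-TKI peaks of genes named in CML-TKI only had a median of 184 bp. More than 2 distinct peaks in a library were found in 4 of 55 members (7.27%, 2.02 to 17.6) and 42 of 86 genes named in all 3 libraries (48.8%, 37.9 to 59.9). The share was 1.67% in genes named in CML-TKI only, 0.654% in CML only and 23.5% in CML and CML-TKI. A gene with more peaks has more chances to be named in every library, so this difference is not independent of the rule.

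**Figure D2:**
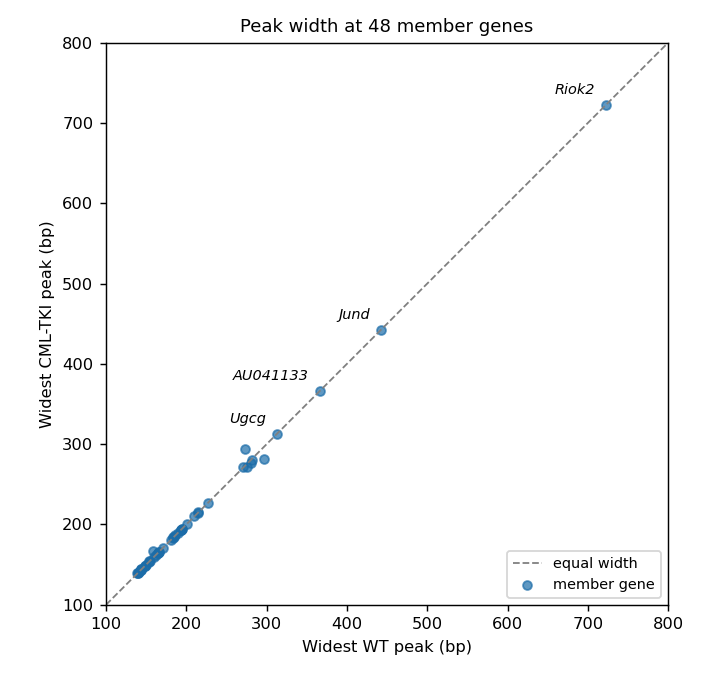
Width of the widest CML-TKI peak against that of the widest WT peak (bp) for the 48 members with full ends in both libraries, 1 point per gene, with a dashed line at equal width. In 41 genes the point is on the line, and the 4 genes above 300 bp are named.

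The gap from a member peak to the nearest CML peak is a description of position and not a test, since a CML peak close by would usually carry the same gene name and remove the gene from the group. Of 50 members with full ends in at least 1 library, none had a CML peak within 10 kb of a member peak (0%, 0 to 7.11), 3 had one within 100 kb (6%, 1.25 to 16.5) and 20 within 1000 kb. The 3 were Ptma at 44944 bp from a peak of 1700019O17Rik, Nemf at 61483 bp from a peak of Arf6, and AU041133 at 73716 bp from a peak of Zfp938. Among genes named in CML-TKI only, 16 of 180 (8.89%, 5.17 to 14) had a CML peak within 100 kb, and the intervals overlap. The median gap was 1404306.5 bp in members and 1553710.5 bp in those genes, each with a wide spread between genes. Those genes were also chosen for having no CML entry, and 1 of the 180 had a CML peak within 10 kb.

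By gene symbol, 4 of the 50 members with full ends had their nearest CML peak named for another gene of the same family, a feature noticed after the values were seen. No such count was made for the other distal genes, so it has no background share beside it and is not read as a trait of the members. They were Klrb1a with Klrb1c at 163857 bp, Ly6e with Ly6c2 at 151766 bp, Mrgpra3 with Mrgpra9 at 462378 bp and Vmn2r76 with Vmn2r74 at 305606 bp. Genes of these families lie side by side in clusters. AU041133, nearest to a peak of Zfp938, was named above among genes of large families. Its symbol names no family, so it was not counted either way.

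**Figure D3:**
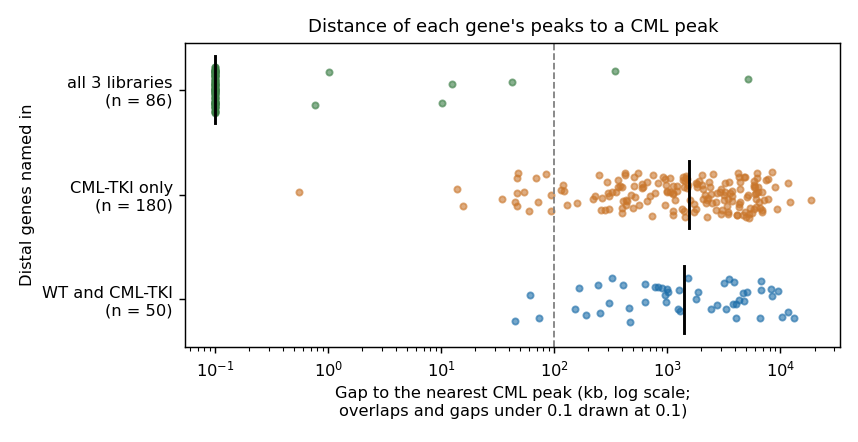
Gap from the nearest WT or CML-TKI peak of each distal gene to the nearest CML peak (kb, log scale), 1 point per gene with a black line at the median and a dashed line at 100 kb. Members (WT and CML-TKI, n = 50) lie at 44944 bp or more, genes named in CML-TKI only (n = 180) at 550 bp or more, and most genes named in all 3 libraries, which were chosen for having a CML entry, sit at an overlap.

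Member peaks fell in annotated repeats in 23 of 55 genes (41.8%, 28.7 to 55.9), against 65 of 86 genes named in all 3 libraries (75.6%, 65.1 to 84.2), 101 of 180 named in CML-TKI only (56.1%, 48.5 to 63.5), 32 of 51 named in CML and CML-TKI (62.7%, 48.1 to 75.9) and 61 of 153 named in CML only (39.9%, 32.1 to 48.1). By genes, the members' interval lay below that of the genes named in all 3 libraries, which have more peaks each and so more chances of a repeat, and overlapped the others. By peaks the intervals overlapped: in WT 43.3% of member peaks (30.6 to 56.8) and 59.3% of the peaks of genes named in all 3 libraries (52.8 to 65.6) were in a repeat, and in CML-TKI 47.2% (35.3 to 59.3) and 61.3% (56.3 to 66.1). LTR elements were the most frequent class with 13 members (23.6%, 13.2 to 37), followed by LINE elements with 3 and SINE elements with 2. The LTR share was 31.4% in genes named in all 3 libraries, 34.4% in CML-TKI only, 33.3% in CML and CML-TKI and 14.4% in CML only. The 3 LINE members were Mterf1b, Slco3a1 and Zmynd11. Repeats of the satellite class, which 11 of 86 genes named in all 3 libraries had (12.8%, 6.56 to 21.7), were annotated at none of the 55 (0%, 0 to 6.49). They were also scarce elsewhere, at 3 of 180 genes named in CML-TKI only, 2 of 153 in CML only and 1 of 51 in CML and CML-TKI. MurSatRep1, the repeat at the Riok2 peaks, has its class listed as unknown and is not in this count, despite its satellite-like name.

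Within the LTR class RMER16-int recurred most often, and RMER15 elements were annotated at Cryba4 and Vmn2r76. The peaks of Ly6e, Nek10, St6galnac3 and Utrn and the shared peak of Hnf4g lay in other LTR elements. RMER16-int, the internal part of a mouse ERVK element, was annotated at 6 members (10.9%, 4.11 to 22.2): Klrb1a, Mrgpra3, Olfr1028, Rfpl4b, Serpina3j and Vmn1r65. It was as frequent in genes named in CML-TKI only, at 20 of 180 (11.1%, 6.92 to 16.6), lower at 6 of 86 genes named in all 3 libraries (6.98%, 2.6 to 14.6) and 4 of 51 named in CML and CML-TKI (7.84%, 2.18 to 18.9), and at 1 of 153 genes named in CML only (0.654%, 0.0165 to 3.59). The interval of the members overlapped all of these but the last. By peaks, 8 of 60 member peaks in WT and 12 of 72 in CML-TKI were in RMER16-int, against 19 of 746, 14 of 715 and 74 of 1757 peaks in the whole WT, CML and CML-TKI lists. CML peaks in RMER16-int therefore existed, at 12 genes. The whole lists also hold promoter peaks. Among CML-TKI peaks of distal genes, 26 of 215 were in RMER16-int in genes named in CML-TKI only. The count was 13 of 400 in genes named in all 3 libraries and 7 of 116 in CML and CML-TKI. The member peaks in RMER16-int lay at 6 genes, and several overlapped one another. The copies of a repeat are alike in sequence, and the part of read placement in this count or at the members in other repeats was not tested.

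CpG islands were annotated at 5 members (9.09%, 3.02 to 20), Baz2a, Fbxw7, Gm7244, Ptma and Rpp21. The share was 3.49% in genes named in all 3 libraries, 3.89% in CML-TKI only, 1.96% in CML and CML-TKI and 1.96% in CML only, and each of these intervals overlapped that of the members. Locus length by GRCm38 had a median of 35982 bp in members and from 26534 to 34724 bp in the other groups.

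**Figure D4:**
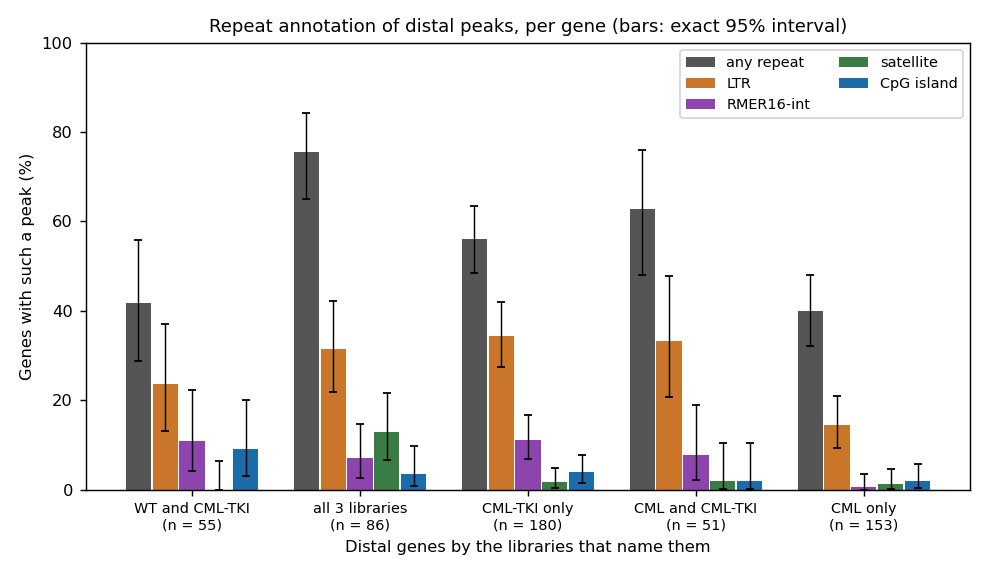
Share of distal genes (%) with a peak in any repeat, an LTR element, RMER16-int, a satellite repeat or a CpG island, by the libraries that name the gene, with exact 95% intervals over genes as error bars. Members are the leftmost group, at 41.8% for any repeat, 10.9% for RMER16-int, 0% for the satellite class (MurSatRep1 at Riok2 not counted) and 9.09% for CpG islands.

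The palindrome that STAT dimers bind, TTCNNNGAA, reads the same on both strands and was searched in the promoters of the members, since the peak coordinates are mm9 and their sequence was not read. RefSeq promoters of GRCm38.p6, from 250 bases before to 50 after a start, were matched for 40 of 55 members. At least 1 promoter of 4 members held the palindrome (10%), against 2582 of 27025 gene symbols (9.55%), a share near that background. Not matched were Arid3a, Gm7244, Hnf4g, Limd1, Ly6e, Mrgpra3, Olfr1028, Pmaip1, Rplp1, Rpp21, Slco3a1, Vmn2r76, Zak, Zbtb16 and Zmiz2. The 4 windows are shown because they are the members' own STAT-type letters, with the palindrome in capitals and 10 bases on either side, 5′ to 3′ along the gene:
Sod2, chr17:13007644-13007672, plus strand: tctccagggtTTCCCAGAAgcaggagtag
Nemf, chr12:69357336-69357364, minus strand: ccggtcattgTTCAAGGAAaggacgcagt
Zeb2, chr2:45113408-45113436, minus strand: agttctccagTTCTGTGAAtggtgtgcac
Vmn1r65, chr7:6010997-6011025, minus strand: tgcacagtacTTCCTAGAAaacatggaca
The palindrome began 185 bases before the start in Sod2, 178 in Nemf, 147 before a start of Zeb2 and 5 in Vmn1r65. The members' peaks lay more than 1000 bp away from these starts, so a match describes the letters of the promoter and not a pSTAT3-Y705 site.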

How the data were processed

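The authors immunoprecipitated chromatin of sorted LSK cells with a pSTAT3-Y705 antibody. Their methods name duplicate removal, adapter trimming, bwa mem, peak calling with MACS2, HOMER, Genrich and SICER2, merging within 100 bp and HOMER annotation, and the processing notes name Partek 8.0, mm9 and mm10. Which steps made the table is not stated. The deposited values are positions and distances in bp per the file headers. Listed ends on 6 of 21 chromosomes passed the GRCm38 lengths, so peak positions are mm9, and GRCm38 served for names, locus lengths and promoters only.

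Each peak was counted once per library. Entries at 100 Mb or beyond can have both ends rounded to 1 Mb: such an entry was dropped where its library listed the same chromosome, accession and distance in full, took the ends of another library, or otherwise was compared by distance with an assumed width of 200 bp (5 members had no full ends). Shares have exact Clopper-Pearson 95% intervals, and overlap meant at least 1 bp. Of the samples, 1 library per group allowed no test. Members, lists and comparisons were chosen with earlier results of these data known. Each member is named, with coordinates for those in a list, the 8 widest in WT, the 8 with most distinct peaks and the 5 nearest to and 5 farthest from the TSS. A gene just outside the distance threshold and some marker genes are not reported here. The counting steps were tested on simulated data. Alternatives changed the distance, gene key, accession, width, rounding, repeats and overlap windows. The scripts ran in Python 3.11.15 with scipy 1.17.1, pandas 2.3.3, numpy 2.4.6 and, for plots, matplotlib 3.10.9.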

Additional observations from a re-analysis of the deposited data

How the results depend on the processing

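The number of member genes stayed within 1.5 times of 55 under 6 of 8 settings. It rose to 101, the 55 included, with no distance condition, and fell to 33, of which 15 were among the 55, when entries under 200 bp were left out. It was 37, with 32 of the 55, outside repeats, and 55, with 52 shared, when absence from CML was set by position. Members in the gene lists were 5 with no distance condition and 0 with entries of 200 bp or wider, instead of 3. A CML peak lay within 10 kb of 0 members, within 100 kb of 3 and within 1000 kb of 20. Overlap of WT and CML-TKI peaks held in 55 members when 50% of the WT peak or a gap of up to 1000 bp was asked for, and in the 48 with listed ends. Shares in introns and repeats, median widths and the median distance stayed within their main intervals. No paired analysis was possible because replicates were lacking (1 library in each group). Depth is unknown, so no limit of detection can be given for the peaks that CML lacks.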

Other observations

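How often a member was listed followed its name in WT, and less closely in CML-TKI. In WT, 12 of 13 members named A to F were listed once, with Ccdc3 the exception, and 41 of 42 named G to Z were listed more than once, with Serpina3j the exception. In CML-TKI, 12 of 13 members named A to F and 22 of 42 named G to Z were listed once. The others of these 42 either had more than 1 distinct peak, as Riok2 with 3 peaks and 6 entries, or came late in the alphabet, as Zeb2 with 1 peak and 3 entries. Copies in CML-TKI thus also went with the number of distinct peaks. Over all genes with letter names the letters were cut at another place. There, 40 of 43 WT genes named A to C were listed once and 160 of 201 named D to Z more than once. In CML these counts were 71 of 82 and 231 of 368, and in CML-TKI 54 of 122 and 410 of 507. The number of copies of an entry was therefore not read as a measure of pSTAT3-Y705 binding.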
